A study of Mus musculus with 42 samples.

Results

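The Slc25 family, the carriers of the mitochondrial inner membrane, was followed at 8 and 35 weeks of age in 3 tissues (liver, quadriceps muscle, visceral fat) of Akt1+/- mice and their wild-type controls. Its members were taken by name alone, as every gene whose name on the array begins with Slc25a, and 42 of the 27658 named genes of the array met this rule. They were read by 71 probes, 20 members having several, and the brightest probe over all arrays stood for its gene. RNA of female C57BL/6 mice was hybridized to 42 one-colour Agilent arrays, 14 for each tissue. Of these 14, 3 were of 8-week Wt, 3 of 8-week Akt1+/-, 4 of 35-week Wt and 4 of 35-week Akt1+/- mice. Akt1+/- mice lacked 1 copy of Akt1 in every cell from conception, so that an effect in a tissue cannot be told apart from an effect of the other tissues on it, and wild-type littermates (Wt) carried both copies. The labels do not say that the arrays of a group are separate mice, so that p-values measure the spread between these arrays, which may be technical.

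A carrier of this family is a small protein that crosses the inner membrane and exchanges or imports 1 kind of solute. ADP/ATP carriers send the ATP of oxidative phosphorylation to the cytosol, carboxylate and aspartate/glutamate carriers move carbon and reducing equivalents for the malate-aspartate shuttle, lipid synthesis and gluconeogenesis, and ornithine carriers join the mitochondrial and cytosolic steps of the urea cycle. Other members bring in acylcarnitines, nucleotides, cofactors, iron or glutathione. Several substrates are served by close paralogs that are known for their use in different tissues, such as Slc25a4 (Ant1) of muscle and Slc25a5 (Ant2) of proliferating tissues, or Slc25a12 (aralar) of muscle and brain and Slc25a13 (citrin) of liver.

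The upstream sequences of these 2 pairs of paralogs are shown because the largest differences between liver and muscle, in either direction, lay in them. They are the 250 bases before the start of the gene, from RefSeq on GRCm38.p6, read 5′ to 3′ on the strand of the gene, at chr8:46211063-46211312 (minus strand), chrX:36795347-36795596 (plus strand), chr2:71367756-71368005 (minus strand) and chr6:6217174-6217423 (minus strand). Capitals mark 4 short motifs, searched on both strands, namely the box with the letters CCAAT, the common GC-rich box GGGCGG, the E-box with the letters CACGTG and lastly the start-site box TATAAA.

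Slc25a4: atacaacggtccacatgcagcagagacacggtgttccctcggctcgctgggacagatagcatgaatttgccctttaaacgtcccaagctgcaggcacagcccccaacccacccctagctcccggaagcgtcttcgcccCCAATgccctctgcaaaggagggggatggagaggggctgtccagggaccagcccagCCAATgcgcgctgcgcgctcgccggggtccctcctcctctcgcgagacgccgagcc
Slc25a5: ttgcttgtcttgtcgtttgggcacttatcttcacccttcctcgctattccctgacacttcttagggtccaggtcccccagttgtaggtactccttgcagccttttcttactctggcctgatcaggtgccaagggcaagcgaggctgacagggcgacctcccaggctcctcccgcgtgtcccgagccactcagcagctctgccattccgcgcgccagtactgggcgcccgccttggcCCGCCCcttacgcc
Slc25a12: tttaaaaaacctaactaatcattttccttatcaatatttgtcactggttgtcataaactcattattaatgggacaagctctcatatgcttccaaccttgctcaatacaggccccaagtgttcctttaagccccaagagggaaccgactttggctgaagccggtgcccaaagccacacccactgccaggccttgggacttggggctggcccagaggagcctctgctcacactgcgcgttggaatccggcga
Slc25a13: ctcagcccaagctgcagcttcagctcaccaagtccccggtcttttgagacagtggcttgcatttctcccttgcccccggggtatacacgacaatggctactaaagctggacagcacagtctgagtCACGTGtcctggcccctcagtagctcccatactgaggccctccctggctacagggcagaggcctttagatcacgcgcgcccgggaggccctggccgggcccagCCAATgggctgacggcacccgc

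CCAAT was found at 2 places before Slc25a4 and at 1 before Slc25a13, GGGCGG at 1 place before Slc25a5, CACGTG at 1 place before Slc25a13, and none of the motifs before Slc25a12. The table held a start for 32 of the 42 members, of which 16 had CCAAT in the window of at least 1 start, 23 had GGGCGG, 7 had CACGTG and 2 had TATAAA. Over all 32851 windows of the table the shares were 33.8%, 32.7%, 6.02% and 12.4%. These shares are per window, while the 32 members were counted over 41 windows, so that the 2 are not like for like and a member with several starts could match more easily. A match is a description of the letters and not of a bound site.

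Levels are log2 of the processed spot intensity after subtraction of the 75th percentile of its array, so that 1 unit is a 2-fold difference and levels can be compared for 1 probe between arrays but not between probes. Of the 42 members, 33 were well above background on all 42 arrays, Slc25a31, the ADP/ATP carrier of the germ line, on none, and Slc25a41 on 1. These last 2 were not tested. A gene entered the tests if some group had 3 or more arrays with its probe well above background, and by this filter 40 members were tested over all arrays, 38 in liver, 37 in muscle and 38 in fat. Between 57.2 and 69.2% of probes were above background on an array and no spot was saturated. Akt1 itself was lower in Akt1+/- liver by 0.67 ± 0.08 (SE; limma adjusted p = 0.0025), in muscle by 0.58 ± 0.11 (adjusted p = 0.0749, not past the threshold) and in fat by 0.55 ± 0.07 (adjusted p = 0.00692), and in each tissue and age the genotypes did not overlap. Defining markers went with the labelled tissues, Alb1 at a mean of 9.51 in liver and Ckm at 9.31 in muscle, but Adipoq was above background on 14 of 14 muscle arrays at a mean of 1.99 and Acta1 on 14 of 14 fat arrays at 5.36, where Ckm was above background on 6 of 14. Their part in the differences between tissues was not tested. These were whole tissues, in which fewer cells of a type and less RNA per cell cannot be told apart.

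Tissue was the main division in the family. Of 40 tested members, 36 differed between liver and muscle (21 higher in liver, 15 lower; limma adjusted p below 0.05), 39 between liver and fat (28 higher, 11 lower) and 37 between muscle and fat (22 higher in muscle, 15 lower). These shares were near those of all 19947 genes tested, of which 85.8%, 86.2% and 87.6% were called in the same comparisons (40.6%, 44.2% and 43.9% higher in the first tissue, 45.2%, 42% and 43.7% lower). Differences of 2 log2 units or more were called for 37.5%, 25% and 25% of members and for 25.7%, 22% and 20.3% of all genes. The median member was higher in liver than in fat by 0.89 and than in muscle by 0.22, where the medians of all genes were 0.04 and −0.06. The mean level was highest in liver for 20 members, in muscle for 15 and in fat for 5.

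**Figure D1:**
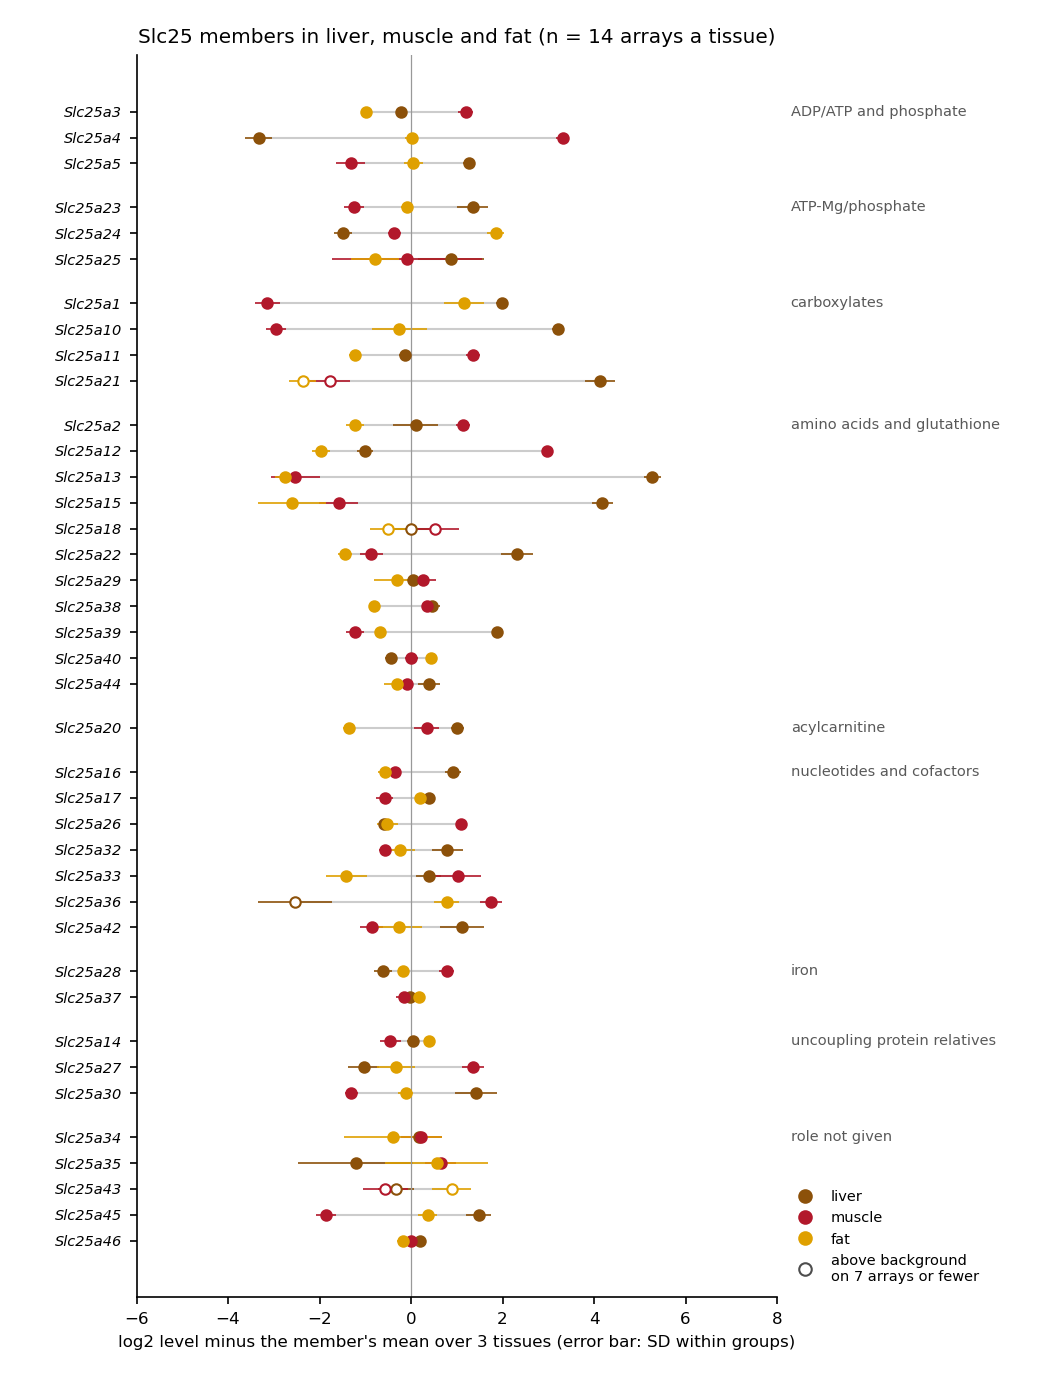
Mean log2 level of 39 tested members in liver, muscle and fat, each minus the member's mean over the 3 tissues, grouped by transported solute; error bars are the SD within groups (n = 14 arrays a tissue in 4 groups) and open circles mark tissues where the member was above background on 7 arrays or fewer. Liver stands far to the right for Slc25a13, Slc25a15, Slc25a21 and Slc25a10, and muscle for Slc25a4 and Slc25a12.

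The ADP/ATP carriers divided by tissue. Slc25a4 lay between 9.16 and 9.62 on the muscle arrays (median 9.42), between 5.80 and 6.35 in fat (median 6.13) and between 2.00 and 3.23 in liver (median 2.80). No array of 1 tissue reached the range of another, and liver was lower than muscle by 6.65 ± 0.08 (SE), which is 100.3-fold (limma adjusted p = 1.3e-36). A second Slc25a4 probe gave −8.61 for the same difference. Slc25a5 had the opposite order, from 7.03 to 7.74 in liver (median 7.57), 5.89 to 6.66 in fat (median 6.33) and 4.58 to 5.70 in muscle (median 4.90), again with no overlap, and was 6.02-fold higher in liver than in muscle (adjusted p = 1.9e-23). Fat lay between the other tissues for both carriers, 10.2-fold above liver for Slc25a4 and 2.59-fold above muscle for Slc25a5 (adjusted p = 4.60e-28 and 1.54e-15).

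Slc25a3 brings in the phosphate that ATP synthase uses, and its probes disagreed. By the brightest probe muscle exceeded liver by 1.42 ± 0.05 and fat by 2.18 ± 0.05, a 4.52-fold difference (adjusted p = 1.1e-28). A second probe put muscle above liver by 6.19 and above fat by 5.99, while liver and fat differed by −0.20 on it against +0.76 on the brightest one, both past the threshold. The last probe put muscle above liver by 0.69 and above fat by 0.48. All 3 probes placed muscle highest, and the sign between liver and fat was not settled by the array. The gene is known for alternative exons used in muscle and elsewhere, and which exon each probe reads was not determined here.

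The aspartate/glutamate carriers of the malate-aspartate shuttle differed most of all. Slc25a13 lay between 4.63 and 5.25 in liver (median 4.95), between −3.63 and −1.42 in muscle (median −3.02) and between −3.76 and −2.77 in fat (median −3.06). Liver stood apart on every array and was 224-fold above muscle (7.80 ± 0.13 log2, adjusted p = 8.0e-33) and 261-fold above fat (8.03 ± 0.13, adjusted p = 6.8e-33), while muscle and fat overlapped and differed by 0.22 ± 0.13 (adjusted p = 0.11). The log2 of the summed level of 5 hepatocyte markers ran from −0.20 to 5.53 over the muscle arrays and from 6.32 to 7.04 over the fat arrays. Its part in the muscle and fat values was not tested. Slc25a12, its paralog, lay between 5.88 and 6.29 in muscle (median 6.06), 1.51 and 2.56 in liver (median 2.17) and 0.57 and 1.57 in fat (median 1.17). Muscle was 15.7-fold above liver (adjusted p = 4.3e-34) and 30.7-fold above fat (adjusted p = 3.6e-36), while the lowest liver array lay just below the highest fat array. The enzymes of the shuttle (Got1, Got2, Mdh1) were all called higher in liver and in muscle than in fat, with median differences of 3.99 and 4.05, and 2 of 3 were called lower in liver than in muscle.

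**Figure D2:**
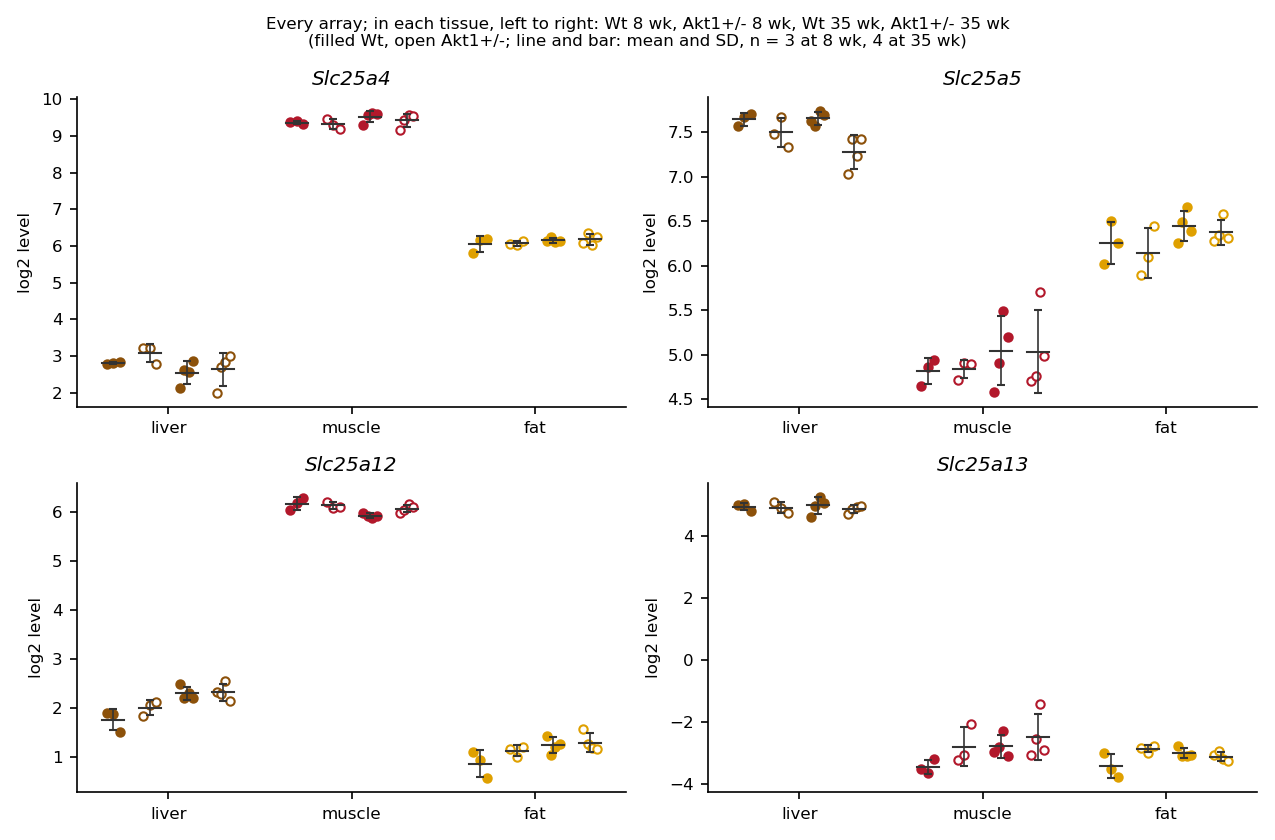
Log2 level on every array for Slc25a4 and Slc25a5 (ADP/ATP carriers) and for Slc25a12 and Slc25a13 (aspartate/glutamate carriers) in liver, muscle and fat; filled circles are Wt and open ones Akt1+/-, and lines and bars are the group mean and SD (n = 3 at 8 weeks, n = 4 at 35 weeks). Slc25a4 and Slc25a12 are highest in muscle and Slc25a5 and Slc25a13 in liver, with a far smaller spread between genotypes and ages.

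Carboxylate carriers were led by liver. Slc25a10, the dicarboxylate carrier, lay between 5.21 and 5.59 in liver (median 5.43), 1.22 and 3.03 in fat (median 1.73) and −1.22 and −0.31 in muscle (median −0.74), 71.7-fold higher in liver than in muscle (adjusted p = 2.9e-29). Fat stood between them without overlap, 11.01-fold below liver and 6.51-fold above muscle (adjusted p = 8.33e-22 and 9.33e-19). Slc25a1, the citrate carrier that supplies carbon for fatty acid synthesis, was called higher in liver (3.37 to 3.79, median 3.50) than in fat (1.83 to 3.77, median 2.74), although their arrays overlapped. It was low in muscle (−1.94 to −1.14, median −1.58). Liver and fat exceeded muscle 34.9-fold and 19.8-fold (adjusted p = 6.0e-30 and 2.0e-27). The oxodicarboxylate carrier Slc25a21 was above background on all 14 liver arrays (−2.03 to −0.55, median −1.44) and on no array of muscle or fat, so that liver was at least 15.7-fold above muscle and at least 22.2-fold above fat, a bound taken from the lowest probes above background there (fitted adjusted p = 3.1e-29 and 3.3e-30). It passed the filter through liver alone, so that these calls are not independent of the filter. The oxoglutarate/malate carrier Slc25a11 was instead highest in muscle, by 2.58 ± 0.05 over fat and 1.49 ± 0.05 over liver (adjusted p = 1.1e-29 and 4.5e-23).

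Of the amino acid and glutathione carriers, 11 were tested, and 10 of them were higher in liver than in fat. Slc25a15, which exchanges ornithine and citrulline for the urea cycle, lay between 0.55 and 1.25 in liver (median 1.05), −5.33 and −3.53 in muscle (median −4.90; above background on 12 of 14 arrays) and −7.16 and −4.44 in fat (median −5.68; 8 of 14). Liver was 54.2-fold above muscle (adjusted p = 1.0e-23). The fitted difference from fat had an adjusted p of 1.3e-25, and its size is not given as a fold, since the fat levels were near background. All 6 urea cycle enzymes were higher in liver in both comparisons, with median differences of 10.76 against muscle and 11.48 against fat. Slc25a2, the other ornithine carrier, was instead highest in muscle (−2.85 to −1.82, median −2.53), ahead of liver (median −3.43) and fat (median −4.66), with muscle 5.11-fold above fat (adjusted p = 1.2e-19).

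The glutamate carrier Slc25a22 was 9.08-fold above muscle and 13.6-fold above fat in liver (adjusted p = 7.8e-25 and 8.9e-27), with no overlap in either case. Its paralog Slc25a18 was above background on 4 liver, 7 muscle and 1 fat arrays, and its called differences, of 0.50 to 1.03, rested on levels mostly below background. The glutathione carrier Slc25a39 was highest in liver, 8.61-fold above muscle (adjusted p = 4.7e-31). The second glutathione carrier, Slc25a40, was lowest in liver (−3.38 to −2.40) and highest in fat (−2.48 to −1.62), a difference of 0.87 ± 0.05 (adjusted p = 2.0e-17) with overlapping arrays.

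The calcium-regulated ATP-Mg/phosphate carriers, which set the size of the adenine nucleotide pool of the matrix, each had their own order. Slc25a24 was highest in fat (1.32 to 2.21, median 1.61), followed by muscle (−0.84 to −0.25, median −0.61) and liver (−1.96 to −1.42, median −1.73), with no overlap. The difference was 10.1-fold between fat and liver (adjusted p = 9.45e-31), and fat was 4.63-fold above muscle (adjusted p = 1.48e-25). Slc25a23 was highest in liver (−2.03 to −0.88, median −1.26), then fat (median −2.76) and muscle (median −4.02), 6.05-fold between liver and muscle (adjusted p = 5.0e-24). For Slc25a25 liver exceeded fat by 1.65 ± 0.41 (adjusted p = 0.000435) and muscle by 0.96 ± 0.41 (adjusted p = 0.0297), with overlap in both cases. The last difference was 0.57 with an adjusted p of 0.458 when scan day was a term of the fit.

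The standard error of Slc25a25 was wide because its arrays disagreed within groups. In muscle its level was 4.85, 5.55 and 5.37 in Wt and 3.71, 5.35 and 1.49 in Akt1+/- mice at 8 weeks. At 35 weeks it was 1.53, 5.79, 5.62 and 5.67 in Wt and 1.84, 5.33, 4.98 and 3.97 in Akt1+/- mice. On 3 of the 14 arrays the level lay between 1.49 and 1.84, and on the others between 3.71 and 5.79. The 3 low arrays came from 3 groups, 3 slides and both scan days of muscle. All 3 probes of the gene were lowest on these same arrays. The SD within groups was 1.63 in muscle and 0.73 in liver, the widest among the 36 members above background on all arrays of each of those tissues, where the medians were 0.20 and 0.18. No genotype or age difference of Slc25a25 passed the threshold in any tissue.

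**Figure D3:**
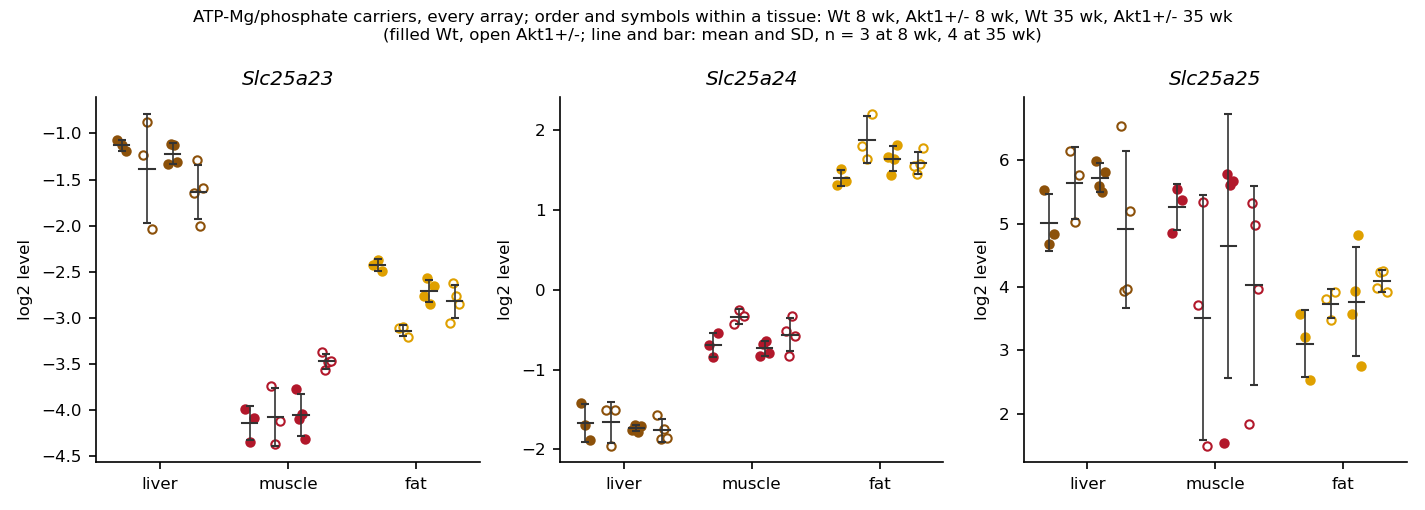
Log2 level on every array for the ATP-Mg/phosphate carriers Slc25a23, Slc25a24 and Slc25a25 in 3 tissues; filled circles are Wt and open ones Akt1+/-, and lines and bars are the group mean and SD (n = 3 at 8 weeks, n = 4 at 35 weeks). Each carrier has its own order of tissues, the genotypes of Slc25a23 stand apart in fat at 8 weeks, and 3 muscle arrays of Slc25a25 lie between 1.49 and 1.84.

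Carriers of nucleotides and cofactors were divided evenly, 4 of 8 being higher and 4 lower in liver than in muscle. The pyrimidine nucleotide carrier Slc25a36 was above background on all arrays of muscle (−1.47 to −0.50, median −1.0) and fat (−2.46 to −1.09, median −1.98) and on 5 of 14 in liver (−6.60 to −3.54, median −5.23). Its fitted liver level, mostly not above background, was lower than in muscle by 4.27 ± 0.19 (adjusted p = 9.9e-21) and than in fat by 3.30 ± 0.19 (adjusted p = 1.9e-17). Muscle exceeded fat by 0.97 ± 0.19 (adjusted p = 1.85e-05), but by 0.18 with an adjusted p of 0.632 when scan day was a term. Slc25a33, its paralog, was 5.43-fold higher in muscle and 3.49-fold higher in liver than in fat (adjusted p = 1.3e-15 and 3.8e-12).

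The remaining groups were small. Slc25a20, the carnitine/acylcarnitine carrier through which fatty acids reach β-oxidation, was 5.17-fold higher in liver and 3.24-fold higher in muscle than in fat (adjusted p = 2.5e-25 and 3.8e-21), with no overlap. All 4 enzymes of the carnitine shuttle were also higher in liver than in fat. Of the mitoferrins, which import iron, Slc25a28 was highest in muscle, 2.60-fold above liver (adjusted p = 9.4e-21), while Slc25a37 differed by 0.33 at most between tissues and its 2 probes were called in opposite directions between liver and fat (−0.20 and +0.17). The uncoupling protein relatives divided too, as Slc25a27 (Ucp4) was 5.27-fold lower in liver than in muscle (adjusted p = 1.6e-18) and Slc25a30 6.64-fold higher (adjusted p = 1.2e-21).

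Of the members for which no role is given here, Slc25a45 was 10.03-fold higher in liver than in muscle and 2.16-fold higher than in fat (adjusted p = 9.2e-28 and 4.6e-14), and 4.65-fold higher in fat than in muscle (adjusted p = 1.82e-22). Slc25a43 was called higher in fat, by 1.21 ± 0.16 over liver and 1.45 ± 0.16 over muscle (adjusted p = 2.25e-08 and 3.93e-10), but it was above background on 5 fat arrays only and no fold can be bounded. It passed the filter through fat alone, so that these calls are not independent of the filter. Slc25a35 was lower in liver than in muscle by 1.86 ± 0.35 and than in fat by 1.77 ± 0.35 (adjusted p = 1.33e-05 and 2.7e-05), and its liver arrays at 8 weeks stood far below the others, as described with age. Slc25a46 had probes called in opposite directions between liver and muscle (+0.20 by the brightest and −0.76 and −0.84 by the others). Of the 16 members with several tested probes, 15 had no such conflict between liver and muscle, 14 between liver and fat and 16 between muscle and fat. All probes of a member shared a sign for 15, 14 and 13 of the 16. Agreement was lower within tissues. For genotype the probes shared a sign for 5 of 12 members in liver, 8 of 16 in muscle and 11 of 15 in fat. For age they did so for 6 of 12, 10 of 16 and 6 of 15, and 0 members had probes called in opposite directions there.

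Slides and scan days were not shared evenly by tissues. Within the scan days that held more than 1 tissue, the sign of the called difference was kept for 39 of 39 members between liver and fat on 1 day and 37 of 39 on another, for 36 of 37 between muscle and fat and for 35 of 36 between liver and muscle, the last on a day that held 1 liver and 6 muscle arrays. The exceptions were Slc25a34, Slc25a35, Slc25a37 and Slc25a16. With scan day as a term of the fit 33 members were called between liver and muscle, 39 between liver and fat and 30 between muscle and fat, of which 32, 38 and 29 were among those called without it. The shares of all genes called in that fit are not given here, so that fewer calls cannot be read as particular to the members.

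Few members differed between genotypes, which was the comparison for which the mice were made. Averaged over both ages, 2 of 38 members were called in liver, where 6.03% of all genes were, 0 of 37 in muscle, where 0% were, and 1 of 38 in fat, where 0.827% were. With arrays scaled by their median the liver calls were 6, all lower in Akt1+/- mice (1 higher and 1 lower otherwise). That scaling also took the median genotype difference of all liver genes from 0.02 to −0.11, so that a lean to lower was shared by all genes. At an unadjusted p below 0.05 the counts were 11, 2 and 4, beside 26.3%, 18.4% and 19.2% of all genes. The interaction of genotype with age was called for no member in any tissue by limma, where it was called for 0.507%, 0% and 1.54% of all genes in liver, muscle and fat, and had an unadjusted p below 0.05 for 3, 3 and 7 members and for 13.9%, 8.43% and 20.1% of all genes. By the methods' test at its threshold of 0.01, it was called for 2, 1 and 3 members and for 4.58%, 2.24% and 7.84% of all genes. At 35 weeks alone no member differed between genotypes, where 3.44% of genes did in liver, 0.099% in muscle and 1.69% in fat.

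In liver the glutathione carrier Slc25a40 was higher in Akt1+/- mice. At 8 weeks its level was −3.38, −3.31 and −3.35 in Wt and −3.00, −2.78 and −2.76 in Akt1+/- mice, with no overlap. At 35 weeks it was −2.78, −2.73, −2.64 and −2.96 in Wt and −2.65, −2.40, −2.71 and −2.76 in Akt1+/- mice, which overlapped. The difference over both ages was 0.33 ± 0.08 (SE; 1.25-fold; limma adjusted p = 0.0341). At 8 weeks alone it was 0.50 ± 0.12 (adjusted p = 0.0496), the only member called at that age in liver, where 2.17% of genes were, and at 35 weeks 0.15 ± 0.10. The probe lies on chr5:8460564-8460623 in the mm8 coordinates of the array.

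The iron importer Slc25a28 was lower in Akt1+/- liver by a difference that missed the threshold. Its level was 2.80, 2.96 and 2.74 in Wt and 2.29, 2.15 and 2.59 in Akt1+/- mice at 8 weeks, without overlap. At 35 weeks it was 2.88, 2.60, 2.52 and 2.70 against 2.56, 2.64, 2.27 and 2.08, and the groups overlapped. The difference was −0.39 ± 0.11 (adjusted p = 0.0517; probe at chr19:43717265-43717324, mm8). Since Wt and Akt1+/- livers of the same age shared no slide, the effects of slide and genotype cannot be told apart there. Cell markers differed on the same 8-week liver arrays. The log2 summed level of macrophage and leukocyte markers ran from 5.36 to 5.83 in Wt and from 6.08 to 6.42 in Akt1+/- mice. That of hepatocyte markers ran from 11.17 to 11.32 and from 10.94 to 11.01. Both overlapped at 35 weeks, and their part in the differences of Slc25a40 and Slc25a28 was not tested.

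The call of Slc25a40 was close to the threshold. It was lost on leaving out any of 8 of the 14 liver arrays (adjusted p from 0.0271 to 0.071), with the same sign throughout. Without Akt1+/- replicate 2 at 8 weeks, the 1 liver array scanned on the day of the muscle arrays, its adjusted p was 0.0565. The difference was 0.20 (adjusted p = 0.113) with arrays scaled by their median and 0.14 (adjusted p = 0.139) after normexp correction and quantile normalization.

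In muscle the members with the lowest p were the ATP-Mg/phosphate carriers Slc25a24 (0.26 ± 0.08 higher in Akt1+/- mice, adjusted p = 0.155) and Slc25a23 (0.33 ± 0.11, adjusted p = 0.174), neither past the threshold. Slc25a24 was −0.69, −0.84 and −0.54 in Wt and −0.43, −0.25 and −0.32 in Akt1+/- muscle at 8 weeks, without overlap, and overlapped at 35 weeks. Summed levels of some cell markers also did not overlap between genotypes on the same 8-week arrays. The log2 of the summed level of 5 adipocyte markers ran from 7.23 to 7.48 in Wt and from 7.57 to 8.3 in Akt1+/- muscle. That of macrophage and leukocyte markers ran from 4.559 to 5.573 in Wt and from 5.596 to 6.135 in Akt1+/- muscle. That of erythroid markers went the other way, from 7.18 to 7.68 in Wt and from 6.63 to 6.86 in Akt1+/- muscle. The part of these cells in the difference of Slc25a24 was not tested. Slc25a23 overlapped at 8 weeks, and at 35 weeks its 4 Akt1+/- arrays, at −3.37, −3.57, −3.48 and −3.47, were all above the Wt arrays at −3.77, −4.10, −4.05 and −4.32 (0.59 ± 0.14, adjusted p = 0.18). The genotypes shared no slide in muscle at 35 weeks, so that the effects of slide and genotype cannot be told apart there.

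In fat Slc25a23 was lower in Akt1+/- mice. At 8 weeks its level was −2.43, −2.37 and −2.49 in Wt and −3.11, −3.10 and −3.21 in Akt1+/- mice, which stood apart by more than the spread of either group. At 35 weeks it was −2.77, −2.57, −2.85 and −2.65 against −3.06, −2.62, −2.76 and −2.85, and the groups overlapped. The difference was −0.41 ± 0.08 over both ages (1.33-fold lower; adjusted p = 0.0365; probe at chr17:56729353-56729412, mm8), −0.71 ± 0.12 at 8 weeks (adjusted p = 0.034; 1 of 38 members and 1.88% of genes called) and −0.11 ± 0.10 at 35 weeks. Its interaction with age was 0.60 ± 0.15 and missed the threshold (adjusted p = 0.0706), but was called without Akt1+/- replicate 1 at 35 weeks. Markers of other cells differed on the same 8-week arrays. The log2 of the summed level of 4 epithelial and mammary markers ran from 1.85 to 2.78 in Wt and from 3.20 to 3.91 in Akt1+/- fat, with 2 of 3 tested ones called higher, and that of 4 ovary markers from −2.87 to −2.27 and from −1.83 to −1.49, with the 1 tested called higher. Of macrophage and leukocyte markers 1 of 4 was higher and of hepatocyte markers 1 of 4 lower, and the part of these cells in the difference of Slc25a23 was not tested. On the slide that held both genotypes at 8 weeks, 1 Wt and 3 Akt1+/- arrays, the difference was −0.65. The call was lost on leaving out any of 9 of the 14 fat arrays (adjusted p up to 0.114), and at 35 weeks the genotypes were scanned on different days.

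The citrate carrier Slc25a1 had the largest interaction of genotype with age in fat. At 8 weeks its level was 2.45, 3.77 and 3.53 in Wt and 1.89, 1.83 and 2.35 in Akt1+/- mice, without overlap (−1.23 ± 0.31, adjusted p = 0.0582). At 35 weeks it was 2.34, 2.98, 2.48 and 2.73 in Wt and 2.76, 3.07, 3.45 and 2.82 in Akt1+/- mice (0.40 ± 0.27). The interaction was 1.62 ± 0.41 and missed the threshold (adjusted p = 0.0693), but was called without Wt replicate 1 at 8 weeks. The lowest p for an interaction in liver was that of Slc25a34 (0.62 ± 0.20, adjusted p = 0.176) and in muscle that of Slc25a40 (0.51 ± 0.15, adjusted p = 0.399).

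**Figure D4:**
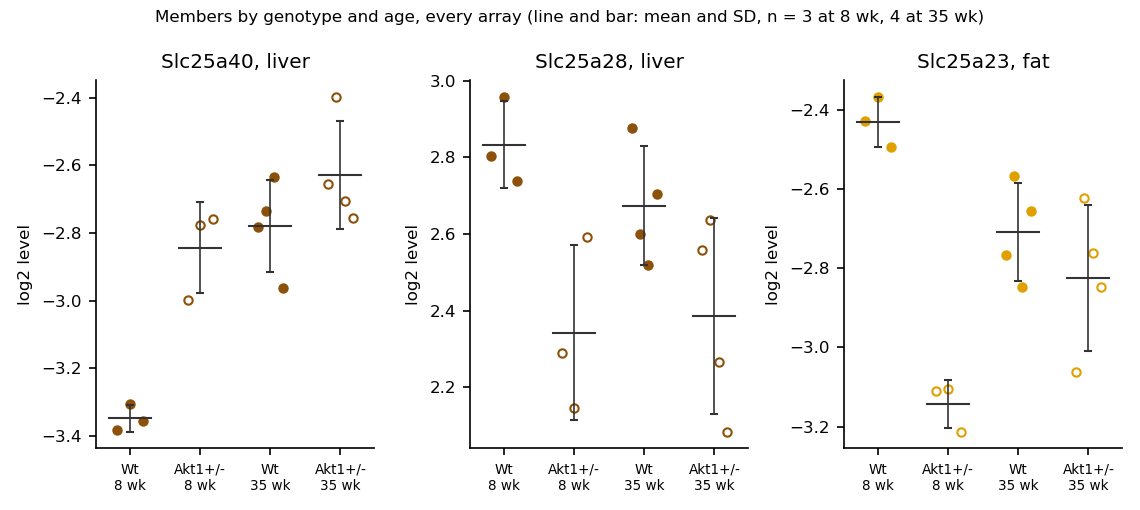
Log2 level on every array of Slc25a40 and Slc25a28 in liver and of Slc25a23 in fat by genotype and age; filled circles are Wt and open ones Akt1+/-, and lines and bars are the group mean and SD (n = 3 at 8 weeks, n = 4 at 35 weeks). In each panel the genotypes are apart at 8 weeks and overlap at 35 weeks.

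Whether a genotype difference was itself different between tissues was tested over all 42 arrays, and 3 of 40 members passed, with 4.19% of all genes. Slc25a40 was higher in Akt1+/- liver (0.33) and lower in fat (−0.26 ± 0.06, adjusted p in fat 0.0811), with −0.07 ± 0.08 in muscle (adjusted p for the difference between tissues 0.00221). Slc25a23 differed by −0.33 ± 0.16 in liver, 0.33 ± 0.11 in muscle and −0.41 ± 0.08 in fat (adjusted p = 0.0183). Slc25a28 was −0.39 ± 0.11 in liver and 0.03 in both muscle and fat (adjusted p = 0.0442), and this call was lost on leaving out any of 23 of the 42 arrays (adjusted p up to 0.0906), where the calls of the other members were lost on leaving out none. With normexp background correction and quantile normalization none of the 3 was called, at adjusted p of 0.0544, 0.146 and 0.0605.

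Age went with more members than genotype. Between 8 and 35 weeks, 12 of 38 members differed in liver (7 higher at 35 weeks, 5 lower), 8 of 37 in muscle (5 higher, 3 lower) and 4 of 38 in fat (2 higher, 2 lower), against 34.7%, 31.2% and 19.3% of all genes (19.7%, 16.8% and 9.95% higher, 15%, 14.4% and 9.34% lower). The direction of these counts moved with the scaling of the arrays. By median scaling they were 18 in liver (2 higher, 16 lower, 7 of them among the 12), 7 in muscle (3 higher, 4 lower) and 6 in fat (2 higher, 4 lower), and after normexp and quantile normalization 9 (4 higher, 5 lower), 8 (4 higher, 4 lower) and 6 (2 higher, 4 lower). Median scaling also took the median age difference of all liver genes from 0.01 to −0.18, so that its shift to lower in liver was shared by all genes. Without that scaling the median member in liver was already at −0.10, with 25 of 38 members below 0, although 7 of the 12 called were higher. The shares of all genes called under these scalings are not given here. Median scaling took the calls of Slc25a12 and Slc25a18 in liver and of Slc25a3 in muscle (adjusted p = 0.0644, 0.058 and 0.0526), with the same sign. In each tissue the ages were scanned on different days, so that age and scan day cannot be told apart.

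In liver the largest increase was that of Slc25a35, at −4.08, −4.94 and −5.72 in Wt and −4.82, −0.46 and −3.68 in Akt1+/- mice at 8 weeks. At 35 weeks it was 0.19, 0.22, −0.21 and −1.01 in Wt and −0.07, −0.39, 0.04 and −1.13 in Akt1+/- mice. The probe was above background on 1 of 3 Wt and 2 of 3 Akt1+/- arrays at 8 weeks and on all 8 at 35 weeks, so that the fitted difference of 3.66 ± 0.56 (adjusted p = 0.000458) rested in part on levels not above background. In liver it passed the filter through the 35-week groups alone, so that its call there is not independent of the filter. The Akt1+/- array at −0.46 was the one scanned on the day of the muscle arrays. Without it the difference was 4.29 (adjusted p = 9.41e-06). In muscle the same probe rose by 1.40 ± 0.16 (adjusted p = 9.58e-05) with no overlap between the ages, and in fat it differed by 0.05 ± 0.56. A second probe of the gene, tested in muscle, gave 0.20 and was not called.

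Slc25a34, of which no role is given here, was higher in liver at 35 weeks, with 8-week arrays between −4.67 and −4.11 and 35-week arrays between −3.99 and −3.27, by 0.62 ± 0.10 (adjusted p = 0.000555). Slc25a12 rose in liver by 0.43 ± 0.09 (adjusted p = 0.00415), from 1.90, 1.88 and 1.51 in Wt and 1.84, 2.06 and 2.12 in Akt1+/- mice to 2.48, 2.20, 2.31 and 2.20 and to 2.32, 2.29, 2.56 and 2.14, without overlap of the ages. Slc25a18, among the 7 counted as higher, was called by 0.67 ± 0.20 (adjusted p = 0.0188) but was above background only on the 4 Akt1+/- arrays at 35 weeks. It passed the filter through this group alone, so that its call is not independent of the filter. Decreases in liver were led by Slc25a21 (−0.64 ± 0.16, adjusted p = 0.0102), Slc25a33 (−0.45 ± 0.14, adjusted p = 0.0256), Slc25a37 (−0.39 ± 0.10, adjusted p = 0.00843) and the peroxisomal carrier Slc25a17 (−0.28 ± 0.08, adjusted p = 0.0134). The second probe of Slc25a37 differed by 0.18 in the other direction and was not called. Beside these, 2 of 4 macrophage and leukocyte markers were higher in liver at 35 weeks, with a log2 summed level from 5.36 to 5.83 at 8 weeks and from 6.40 to 6.71 at 35 weeks in Wt and from 6.08 to 6.42 and from 6.17 to 6.93 in Akt1+/- mice. Of 5 hepatocyte markers 1 was lower, as was the 1 adipocyte marker tested, Fabp4 (−0.59 ± 0.11, adjusted p = 0.00198). Their part in the members' differences was not tested.

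In muscle the ornithine carrier Slc25a2 was lower at 35 weeks. Its 8-week arrays lay between −2.20 and −1.82 and its 35-week arrays between −2.85 and −2.48 in both genotypes, and the difference was −0.67 ± 0.08 (1.59-fold lower; adjusted p = 0.000131). Slc25a28 was higher by 0.39 ± 0.08 (adjusted p = 0.00452), Slc25a23 by 0.34 ± 0.11 (adjusted p = 0.0323) and Slc25a3 by 0.32 ± 0.09 (adjusted p = 0.0181), and Slc25a27 and Slc25a40 were lower by 0.45 and 0.25 log2 units (adjusted p = 0.019 and 0.0265). Beside these, 2 of 5 adipocyte markers were higher in muscle at 35 weeks, and the log2 of their summed level ran from 7.23 to 8.3 at 8 weeks and from 7.53 to 8.33 at 35 weeks. Of 4 erythroid markers 3 were lower at 35 weeks. The part of these cells in the members' differences was not tested.

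In fat Slc25a20 was lower at 35 weeks, from 1.79, 1.80 and 1.68 in Wt and 1.32, 1.52 and 1.53 in Akt1+/- mice to 1.11, 1.08, 1.26 and 0.82 and to 0.98, 0.95, 1.24 and 1.19. The ages did not overlap, and the difference was −0.53 ± 0.08 (1.44-fold lower; adjusted p = 0.00149). Slc25a17 was lower by 0.36 ± 0.07 (adjusted p = 0.00488), and Slc25a40 and Slc25a14 (Ucp5) were higher by 0.43 ± 0.06 and 0.27 ± 0.07 (adjusted p = 0.00127 and 0.0219). None of 4 carnitine shuttle enzymes was called with age in fat.

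**Figure D5:**
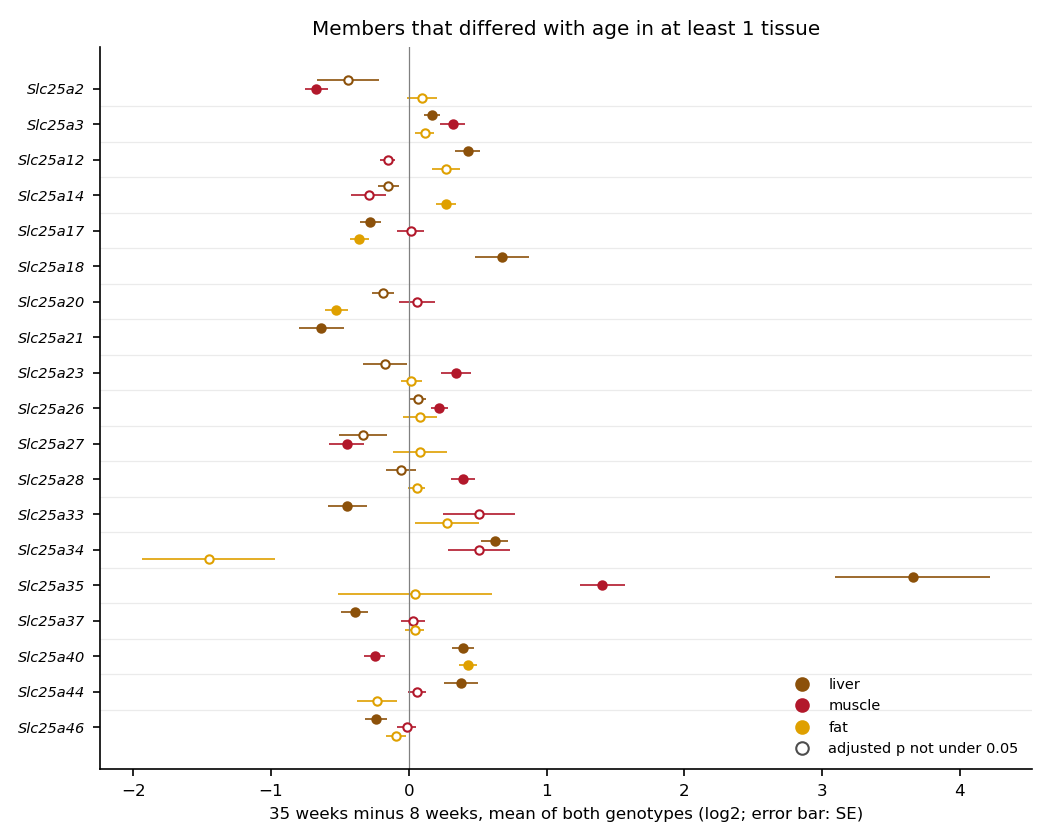
Difference between 35 and 8 weeks (log2, mean of both genotypes, error bars SE) in liver, muscle and fat for the 19 members called in at least 1 tissue; filled circles passed an adjusted p of 0.05 and open ones did not, and a missing circle was not tested. Slc25a40 lies right of 0 in liver and fat and left of 0 in muscle.

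The age difference itself differed between tissues for 12 of 40 members, where 30.5% of all genes did. It was led by Slc25a40, which was higher at 35 weeks in liver (0.39 ± 0.08) and fat and lower in muscle (adjusted p = 5.7e-06), by Slc25a35 (adjusted p = 0.000891) and by Slc25a12, at 0.43 in liver, −0.15 in muscle and 0.27 in fat (adjusted p = 0.0013). The mitoferrins were both among them, with Slc25a28 higher at 35 weeks in muscle and Slc25a37 lower in liver (adjusted p = 0.0122 and 0.00725). Slc25a4 was also called (adjusted p = 0.0331), although its age difference passed in no single tissue.

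Mitochondrial transporters whose array name does not begin with Slc25a, some of them (the uncoupling proteins) relatives of members, were compared in the same way. Of 22 such genes on the array (mitochondrial pyruvate carrier subunits, voltage-dependent anion channels, uncoupling proteins, sideroflexins and others), 2 of 20 tested were lower in Akt1+/- liver, 0 of 20 differed in muscle and 0 of 21 in fat. With age 8 of 20 were called in liver (2 higher, 6 lower), 7 of 20 in muscle (2 higher, 5 lower) and 3 of 21 in fat (1 higher, 2 lower). Between tissues 19 of 22 were called between liver and muscle (7 higher in liver, 12 lower), 22 between liver and fat (14 higher, 8 lower) and 20 between muscle and fat (13 higher in muscle, 7 lower). Of all genes tested, 6.03%, 0% and 0.827% were called for genotype in liver, muscle and fat, and 34.7%, 31.2% and 19.3% with age. Between tissues 85.8%, 86.2% and 87.6% of all genes were called, in the same order.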

How the data were processed

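Liver, quadriceps muscle and visceral fat of female C57BL/6 mice were hybridized as Cy3-labelled RNA to 42 one-colour Agilent whole mouse 44K arrays. The authors deposited the scanner output, in which Agilent Feature Extraction 9.1 (per the labels) gave each spot a processed intensity, corrected for background on a linear scale, and a table of log2 values from which each array's own 75th percentile had been taken off. From the processed intensities, spots of a probe were averaged, 182 probes with only flagged spots on an array were left out, and log2 values minus the 75th percentile of the array were used. The brightest of a gene's probes over all 42 arrays stood for it, and genes well above background on 3 or more arrays of some group were tested. Groups came from the labels, with ages as given there; for the older mice the methods state another age and another number per group. Genotype, age and their interaction were tested with limma 3.58.1 (R 4.3.3) on the 14 arrays of a tissue, and tissues on all 42 arrays, with Benjamini-Hochberg adjustment over all genes and a threshold of 0.05; the fits were tested on simulated data. The number of arrays limits the precision. Named members were the 5 largest called differences in each direction per pair of tissues, those called for genotype or the interaction (otherwise the 2 lowest p), the 4 largest increases and decreases with age per tissue, all sets of paralogs, and members whose probes disagreed. One member is counted but not reported by name. Members and lists were chosen with earlier results of these data known. The authors' log2 table, median scaling, normexp with quantile normalization, other filters, other choices of probe, the methods' two-way test, slide, scan day or replicate number as a block and each array left out were tried. Tables and plots used Python 3.11.15 with pandas 2.3.3, numpy 2.4.6 and matplotlib 3.10.9.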

Additional observations from a re-analysis of the deposited data

Results flagged for a closer look

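Single arrays stood apart in 2 of the 52 groups of 4 arrays that were examined over the named members, and chance flags about 1 in 20 groups. Slc25a25 was 1.53 in Wt muscle at 35 weeks, replicate 1, where the nearest of the other arrays was 5.62, and this gap was 0.960 of the whole range of the group. Slc25a2 was −2.85 in Akt1+/- muscle at 35 weeks, replicate 3, against a nearest value of −2.61, a gap of 0.863 of the range.

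The genotype difference was itself different between tissues for Slc25a40 (limma adjusted p = 0.00221), Slc25a23 (adjusted p = 0.0183) and Slc25a28 (adjusted p = 0.0442), with the values given above.

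The age difference was different between tissues for 12 members. Slc25a40 (adjusted p = 5.73e-06), Slc25a35 (adjusted p = 0.000891), Slc25a12 (adjusted p = 0.0013) and Slc25a28 (adjusted p = 0.0122) were described above, as was Slc25a37 (adjusted p = 0.00725), at −0.39 in liver, 0.03 in muscle and 0.04 in fat. Slc25a34 was 0.62 in liver and −1.45 in fat (adjusted p = 0.00134), the latter not called. Slc25a14 had age differences of −0.15 in liver, −0.29 in muscle and 0.27 in fat (adjusted p = 0.00488). Slc25a20 was −0.19, 0.06 and −0.53 in the same order (adjusted p = 0.0074), and Slc25a17 −0.28, 0.01 and −0.36 (adjusted p = 0.0271). The branched-chain amino acid carrier Slc25a44 was 0.38, 0.06 and −0.23 (adjusted p = 0.0215), Slc25a2 was −0.44, −0.67 and 0.10 (adjusted p = 0.0233) and Slc25a4 was −0.35, 0.13 and 0.10 (adjusted p = 0.0331). In each tissue the ages were scanned on different days, and the part of scan day was not tested.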

How the results depend on the processing

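Counts of members called between tissues stayed within 34 to 39 of 40 when any array was left out. The 2 genotype calls in liver became 5 in 1 fit over all 42 arrays, 6 with median scaling (all lower in Akt1+/- mice), 1 with the replicate block and 0 without the filter, without the interaction term or with slide as a random block. The 1 call in fat became 0 with median scaling, without the filter, without the interaction term and with the replicate block. No interaction was called in fat by limma, but 1 was in the fit over all arrays and 2 after normexp and quantile normalization, which also took the 3 genotype differences between tissues to 0. Age calls in fat went from 4 to 7 in the fit over all arrays or with slide as a random block. With the replicate block the age calls were 0 in fat, 3 in liver (12 without it) and 2 in muscle (8 without it). The block was coded within age, so that this fit compared the ages through 1 replicate number of each age. It therefore cannot check the age calls. Replicate numbers were not taken as pairs, since the same number in both genotypes correlated between −0.194 and 0.0584 at 8 weeks (0 of 9 pairs over 0.1) and between 0.0903 and 0.407 at 35 weeks (11 of 12), where every pair was required to be. Leaving out 1 array gave 0 to 4 genotype calls in liver, 0 to 1 in fat, 0 to 2 interactions in fat, 4 to 7 age calls in fat and 2 to 6 genotype differences between tissues. The highest of these came without Akt1+/- replicate 2 at 35 weeks (liver), Akt1+/- replicate 3 at 8 weeks (age in fat, 7) and Wt fat replicate 1 at 8 weeks (2 interactions and 6 differences between tissues), and 2 interactions were also called without Akt1+/- fat replicate 1 at 35 weeks. The only reversal was Slc25a46 between liver and muscle, −0.46 as the mean of its probes. Of the values of named members under the alternatives, 4360 kept direction and side of the threshold, 163 lost the call and 6 gained it. Median scaling took the median difference of all genes from 0.02 to −0.11 for genotype and from 0.01 to −0.18 for age in liver, and from 0.04 to 0.22 between liver and fat. The cause of these changes was not tested. Differences of probes that were dim on many arrays, such as those of Slc25a18, Slc25a36 in liver and Slc25a43, rest on levels at background.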

Other observations

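Some genes of the array are now named Slc25a in RefSeq but carried another name on it, and they were not among the members. Slc25a47 (AI132487 on the array) lay between 7.64 and 8.61 in liver (median 8.12) and was higher there than in muscle by 8.21 ± 0.12 and than in fat by 8.82 ± 0.12 (SE, log2). Slc25a48 (AU042651) was above background on 14 liver arrays, 1 muscle array and 4 fat arrays, with a liver level between −3.61 and −1.84 (median −2.42). Slc25a51 was read by probes of 2 array names that disagreed between liver and muscle, −0.89 by Mcart1 and 3.22 by 9130208E07Rik. Slc25a54 (4930443G12Rik) was above background on no array. None of the tested ones was called for genotype in any tissue by limma.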
